A study of Mus musculus with 18 samples.

Results

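Ttc39c hosts 3 of the 434 circular RNAs measured in these mouse livers. They were taken by position, as all circular RNAs with both ends inside the gene. The gene itself was chosen on measured values: its circular RNA of 13223 bp had a lower level in livers of mice given carbon tetrachloride (CCl4) than in control livers. That comparison is therefore given below as a description, without a test. Circular RNA was sequenced in liver from 18 male C57BL/6 mice in week 22 of the experiment, 6 per group, all 6 weeks old at its start. Control mice were gavaged with water and injected intraperitoneally with olive oil. The CCl4 group had water by gavage and injections of CCl4, a liver toxin that was used by the study to model liver cancer. The CCl4+PZH group had the same injections and, daily by gavage, the traditional Chinese medicine Pien Tze Huang (PZH), which some labels write as PTH. Each library was made from liver tissue of a sampled mouse, and the labels do not say whether the tissue was tumour.

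Circular RNAs form when the splicing machinery joins the end of a downstream exon back to the start of an upstream exon of the same transcript. The closed loop has no free ends, resists exonucleases and is usually long-lived, and a gene can give several loops that compete with its linear mRNA for the same splice sites. Ttc39c encodes a protein with tetratricopeptide repeats (TPR), helical motifs that bind other proteins and hold complexes together. Its relative Ttc39b is known in liver for promoting degradation of the sterol-sensing receptor LXR, while the role of Ttc39c itself in liver is less well defined. Linear Ttc39c mRNA was not analysed here, and circular and linear products of a gene need not move together.

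All 3 circular RNAs lie in the part of Ttc39c with the higher coordinates. The gene spans 12583103 to 12739404 of chromosome 18 (156302 bp, GRCm38). The first circular RNA runs from 12684837 to 12698059, or 13223 bp. The second starts at the same base, 12684837, and ends at 12689887, so that its 5051 bp lie wholly within the first. The third runs from 12728620 to 12730117, or 1498 bp, and lies 30560 bp beyond the end of the first and 9.29 kb before the end of the gene. These spans include any introns between the ends, so they are not the lengths of the RNA loops, and exons were not used here. The 3 are called the 13223-bp, 5051-bp and 1498-bp circles below. Of the 434 spans in the table, 89 were longer than 13223 bp and 335 longer than 1498 bp, with a median of 4691 bp. The microRNA gene Mir1948 lies inside Ttc39c at 12714811 to 12714895, in the stretch between the 13223-bp and 1498-bp circles, and the long non-coding RNA gene Gm41668 lies before all of them. Neither is inside a circle.

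**Figure D1:**
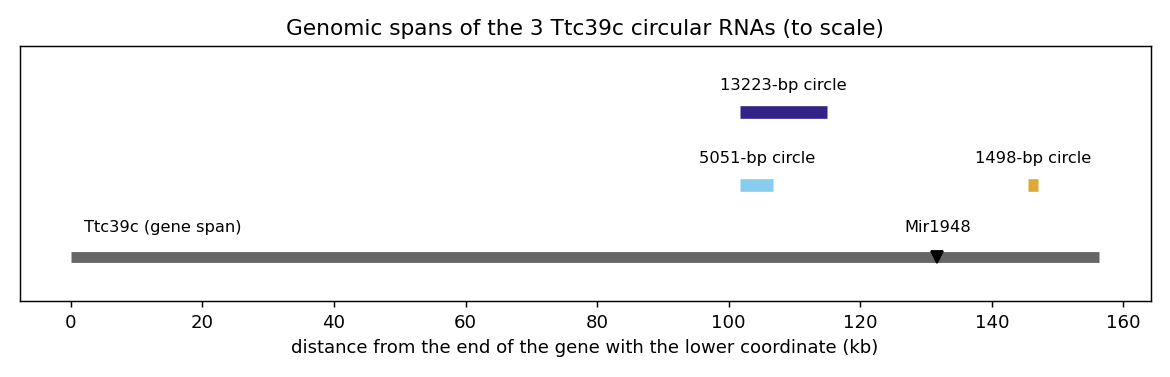
The horizontal axis is the distance in kb from the end of Ttc39c with the lower coordinate; the grey bar is the gene, coloured bars are the spans of the 3 circular RNAs and the triangle is Mir1948. The 13223-bp and 5051-bp circles start at the same base, and the 1498-bp circle stands apart from both.

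The values are CPM, reads across the back-splice junction scaled by the authors to a library total. A circle has a single such junction, so its CPM is not divided by length. Whole reads could be recovered from the CPM, and they numbered 900 to 2840 per library over the whole table. The sum of CPM over the table ran from 40.4 to 550 within the controls alone, so values are also given per 1000 recovered reads of the table. The 3 controls 2, 3 and 4 have later sample accessions than the other 15 libraries, and some results are also given with controls 1, 5 and 8 alone. The extremes of summed CPM lay in these later controls, at 387, 40.4 and 550 CPM. Controls 1, 5 and 8 had 180, 112 and 187 CPM, and the other groups ran from 85.5 (CCl4 8) to 251 CPM (CCl4+PZH 3). Of the 20 circular RNAs with most reads, 18 were listed at 0 in at least 1 library. Where a circle is listed at 0, up to 3 reads are allowed, worth between 0.135 CPM (control 3) and 0.918 CPM (control 2); such limits and the intervals below cover counting error only.

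Ttc39c was among the leading hosts of circular RNA in control livers and stood lower in the order in CCl4 livers. With 235 reads over its 3 circles it ranked 4 of 374 hosts in controls. In CCl4 livers it had 47 reads and ranked 26, and in CCl4+PZH livers 136 reads and rank 4, tied with 1 other host in each of these groups. Summed over the 3 circles, control livers had a mean of 6.37 ± 5.20 CPM, CCl4 livers one of 0.989 ± 0.807 CPM, and treated (CCl4+PZH) livers one of 3.29 ± 2.31 CPM (SD, n = 6 per group). The CCl4 mean was 6.44-fold below that of controls in CPM and 4.37-fold below it per 1000 reads. With controls 1, 5 and 8 alone the control mean was 4.50 CPM and the CCl4 mean 4.55-fold below it. In CPM the summed levels of controls (1.03 to 12.9) and CCl4 livers (0.184 to 2.201) overlapped. Per 1000 reads they did not, at 13.6 to 51.5 in controls and 2.15 to 12.6 in CCl4, a narrow gap. On this scale CCl4 livers lay wholly below controls for 1 of 374 hosts (0.267%), which is Ttc39c. Hosts with CCl4 livers wholly above controls were not counted, and the Ttc39c sum holds the circle the gene was chosen on.

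The 13223-bp circle is the member that brought the gene into view. In controls 1, 2, 3, 4, 5 and 8 it stood at 2.18, 2.76, 0.763, 2.52, 0.571 and 1.83 CPM. In CCl4 livers 1, 2, 4, 5, 7 and 8 it stood at 0, 0, 0.274, 0.367, 0.175 and 0.0919 CPM. Every control was above every CCl4 liver, and CCl4 livers 1 and 2 had no read of it. In CCl4+PZH livers 1, 2, 3, 6, 7 and 8 it stood at 0.0971, 1.01, 1.62, 1.03, 1.21 and 0.515 CPM. Of these 6 livers 5 lay above the highest CCl4 liver, while CCl4+PZH 1, with 1 read, lay among the CCl4 values. All 6 lay below the control median of 2.003 CPM.

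The 13223-bp circle had a mean of 1.77 ± 0.911 CPM in control livers, 0.151 ± 0.149 CPM after CCl4 alone and 0.913 ± 0.535 CPM after CCl4 with PZH (SD, n = 6 per group). The CCl4 mean was 11.7-fold below that of controls in CPM and 9.13-fold below it per 1000 reads. Controls and CCl4 livers did not overlap on the second scale either: the lowest control had 4.58 and the highest CCl4 liver 2.096 reads per 1000. On that scale CCl4 livers lay wholly below controls for 1 of 434 (0.23%), which is this circle. Circular RNAs with CCl4 livers wholly above controls were not counted. By reads the circle ranked 9 of 434 in controls, 278 after CCl4 and 50 after CCl4 with PZH. CCl4 livers lay wholly below controls for 1 of 434 circular RNAs, or 0.23%, and it is this circle; since the gene was chosen on this contrast, nothing is read from that count.

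On the log2(CPM + 0.13655) scale used for the fits, which understates the change of low values, the 13223-bp circle differed between CCl4 and control by −2.72 (SE 0.74). No other of the 434 circular RNAs had a lower fitted value. The median of all 434 was −0.28 in this contrast as deposited, or −0.03 after scaling each library to its sum over the table; relative to the first the difference was −2.43. The choice used limma's Benjamini-Hochberg adjusted p, with 3 of 434 (0.691%) past 0.05. The circle lay just inside that limit, at adjusted p = 0.0353, and the next circular RNA, in Psd3, a guanine nucleotide exchange factor gene, lay outside it at adjusted p = 0.109. It did not keep that side of the limit in 8 of the 18 fits that leave out a single library (control 1, 2, 4 or 8, or CCl4 1, 2, 7 or 8), where limma gave adjusted p = 0.0621 to 0.159. With controls 1, 5 and 8 alone the adjusted p was 0.189 and the difference −2.53; over all 30 alternatives the adjusted p ran from 0.00332 to 0.189, above 0.05 in 12. limma took the spread wholly from the trend over all 434, so the SE is not the circle's own: its residual SD was 0.91, which ranked 349 of 434 from the largest.

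**Figure D2:**
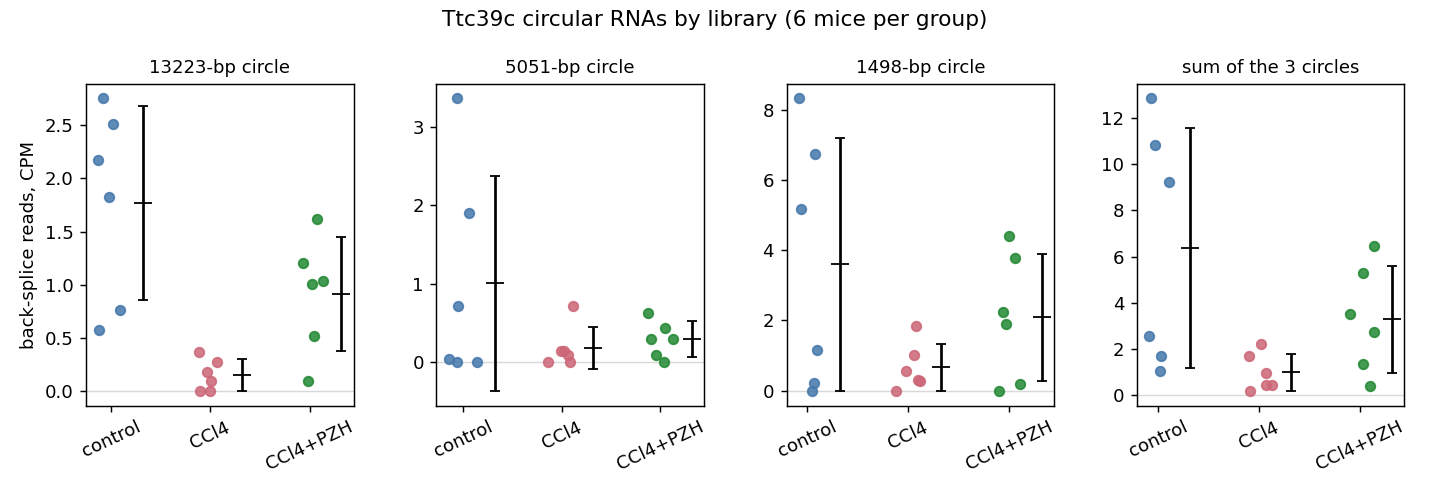
Each point is the CPM of back-splice reads in the liver of 1 mouse, by group, for each circle and for their sum; bars are the mean and SD of 6 mice, and the vertical scales differ between panels. The 13223-bp circle separates all controls from all CCl4 livers, whereas the other circles overlap between every pair of groups.

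The 5051-bp circle, which shares its start with the 13223-bp circle, was the rarest of the 3, with 54 reads in all. In controls 1, 2, 3, 4, 5 and 8 it stood at 1.90, 3.37, 0.0449, 0, 0 and 0.712 CPM. In CCl4 livers 1, 2, 4, 5, 7 and 8 it stood at 0.715, 0.146, 0.137, 0, 0 and 0.0919 CPM. In CCl4+PZH livers 1, 2, 3, 6, 7 and 8 it stood at 0.0971, 0.629, 0.441, 0.295, 0.301 and 0 CPM. Controls 1 and 2 were high and the other controls overlapped the rest, so that all groups overlapped. Its mean was 1.01 ± 1.37 CPM without CCl4, 0.182 ± 0.269 CPM with CCl4 and 0.294 ± 0.228 CPM with CCl4 and PZH (SD, n = 6 per group). The fitted difference between CCl4 and control was −1.03 (SE 0.69), with 56 of the 434 lower. It was −0.48 without control 2 and −0.64 without control 1, and −2.45 with DESeq2 on recovered reads.

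The 1498-bp circle was the most abundant of the 3, with 238 reads, the seventh most of all 434. In controls 1, 2, 3, 4, 5 and 8 it stood at 5.17, 6.73, 0.224, 8.32, 1.14 and 0 CPM. In CCl4 livers 1, 2, 4, 5, 7 and 8 it stood at 1.001, 0.292, 0.549, 1.83, 0.262 and 0 CPM. In CCl4+PZH livers 1, 2, 3, 6, 7 and 8 it stood at 0.194, 1.89, 4.41, 0, 3.77 and 2.23 CPM. Levels within a group ran from 0 to high values, and all groups overlapped. The control mean was 3.60 ± 3.61 CPM, the CCl4 mean 0.656 ± 0.669 CPM and the CCl4+PZH mean 2.08 ± 1.80 CPM (SD, n = 6 per group). With controls 1, 5 and 8 alone the control mean was 2.103 CPM. The fitted difference between CCl4 and control was −1.51 (SE 0.78), with 17 of the 434 lower. Its residual SD of 2.01 on the log2 scale was the third largest of all 434, so the SE from the trend is small for the spread of this circle.

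The 1498-bp circle was listed at 0 in 1 library of each group, each of which held reads of the other 2 circles. Control 8 had 25 such reads, CCl4+PZH 6 had 9 and CCl4 8 had 2. In control 8 a count of 0 allows up to 1.63 reads per 1000, while the other controls had 5.56 to 28.8 reads per 1000. In CCl4+PZH 6 it allows 2.36, within the range of 1.68 to 17.6 in the other livers of that group. Without control 8 the fitted difference between CCl4 and control was −2.23, and with controls 1, 5 and 8 alone it was −0.76.

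The means of all 3 circles stood in the same order, with controls highest, CCl4+PZH between and CCl4 lowest. The same order was found for 154 of the 434 circular RNAs, or 35.5%, so it is common in the table. For the comparison of CCl4+PZH with CCl4, 3 of 3 fitted differences were positive, as were 69.8% of all 434. CCl4+PZH livers exceeded CCl4 livers in mean CPM 6.03-fold for the 13223-bp circle, 1.62-fold for the 5051-bp circle and 3.17-fold for the 1498-bp circle. Per 1000 reads these ratios were 3.91, 1.22 and 2.31. The choice of the gene on low CCl4 values of the 13223-bp circle favours a high ratio for that circle. Single livers weigh on the ratios of mean CPM, in both directions. For the 5051-bp circle the ratio ran from 1.25 (without CCl4+PZH 2) to 3.92 (without CCl4 1). For the 1498-bp circle it ran from 2.46 (without CCl4+PZH 3) to 4.95 (without CCl4 5). For the 13223-bp circle it ran from 5.03 (without CCl4 1 or CCl4 2) to 8.43 (without CCl4 5).

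None of the 3 circles passed the test between CCl4+PZH and CCl4. This comparison shares the CCl4 livers with the contrast on which the gene was chosen. A choice on low CCl4 values favours a positive difference here. The rank and interval of the 13223-bp circle below are therefore not independent of the choice. In limma's fit over all 434, which called 0 (0%) here and had 24 with an unadjusted p under 0.05 (DESeq2 and edgeR on recovered reads also called 0), the 13223-bp circle differed by 1.80 (SE 0.74, adjusted p = 0.804). Only 2 of the 434 had a higher fitted value, and relative to the table's median of 0.23 the difference was 1.57. The 95% interval of the difference, before any adjustment, was 0.34 to 3.25. For the 1498-bp circle the difference was 1.12 (SE 0.78, limma adjusted p = 0.841), and for the 5051-bp circle 0.54 (SE 0.69, limma adjusted p = 0.953). CCl4 livers lay wholly below CCl4+PZH livers for 1 of 434 (0.23%), which was none of the 3.

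None of them passed between CCl4+PZH and control, a comparison that shares the controls with the choosing contrast. A choice on high control values favours a negative difference here. limma called 1 of 434 (0.23%), which lies in no annotated gene. The 13223-bp circle differed by −0.92 (SE 0.74, limma adjusted p = 0.882), with a 95% interval of −2.37 to 0.53. The 5051-bp circle differed by −0.49 (SE 0.69, limma adjusted p = 0.920) and the 1498-bp circle by −0.39 (SE 0.78, limma adjusted p = 0.967). The sign for the 1498-bp circle turned positive with controls 1, 5 and 8 alone (0.36) and without control 2, control 4 or CCl4+PZH 6 (0.024, 0.084 and 0.25), and that for the 5051-bp circle without control 2 (0.058). For 0 of 434 circular RNAs (0%) did CCl4+PZH livers lie wholly below controls. The interval for the 13223-bp circle holds both no difference and a level several-fold below control, so 6 livers per group do not settle whether treated livers match controls.

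**Figure D3:**
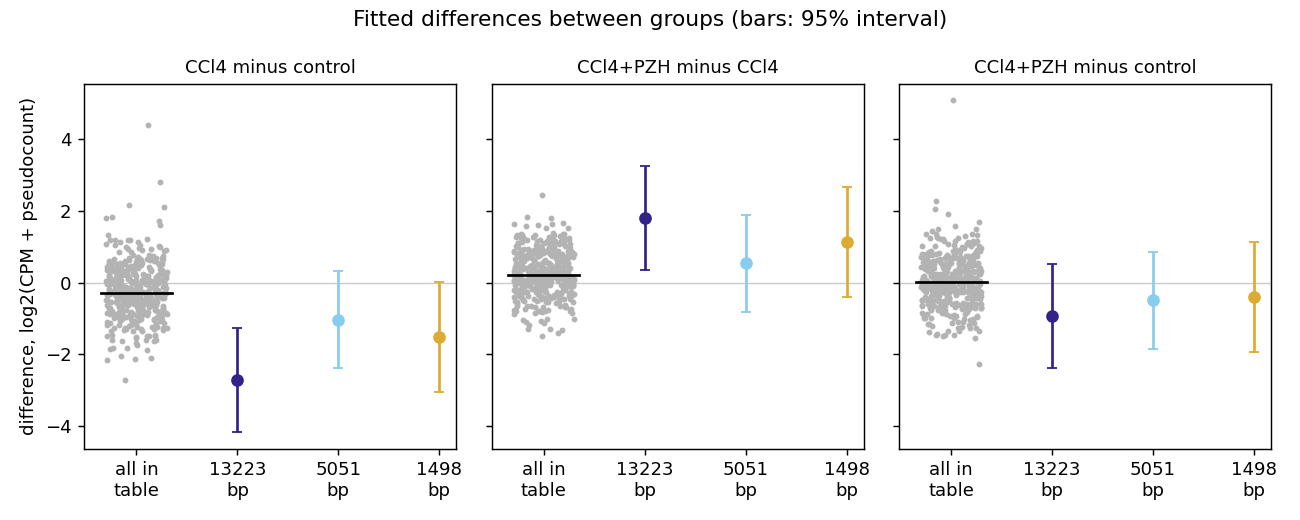
Fitted differences on the log2(CPM + pseudocount) scale for the 3 comparisons: grey points are all 434 circular RNAs with a line at their median, and coloured points with bars are the 3 Ttc39c circles with the 95% interval. The 13223-bp circle is the lowest of all points for CCl4 minus control and among the highest for CCl4+PZH minus CCl4, where none of the 3 passed adjustment. Both places rest on the CCl4 values of this circle, on which the gene was chosen.

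The share of each circle in the host's reads describes how these reads divide among the 3 circles that the table holds. Over all 18 libraries the 1498-bp circle took 56.9% of 418 reads, the 13223-bp circle 30.1% and the 5051-bp circle 12.9%. The 1498-bp circle had the most reads in 14 of 18 libraries. The 13223-bp circle led in controls 3 and 8, in CCl4+PZH 6, and at 1 read each with the 5051-bp circle in CCl4 8.

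By group, the 13223-bp circle held 34.04% of 235 reads in control livers (exact Clopper-Pearson 95% interval 28.01 to 40.5), 17.02% of 47 in CCl4 livers (7.65 to 30.8) and 27.9% of 136 in the treated livers (20.6 to 36.3). The 1498-bp circle held 51.9% (45.3 to 58.5), 66.0% (50.7 to 79.1) and 62.5% (53.8 to 70.7) in the same order. The 5051-bp circle held 14.04% (9.87 to 19.2), 17.02% (7.65 to 30.8) and 9.56% (5.19 to 15.8). For each circle the intervals of all 3 groups overlapped. These intervals cover counting error of pooled reads and leave out the spread between mice. In single livers, at their own lower depth, the share of the 13223-bp circle averaged 41.2% ± 24.9 for control, 22.5% ± 20.7 for CCl4 and 33.0% ± 22.2 for CCl4+PZH livers (SD, n = 6 per group). CCl4 livers had 2 to 18 host reads each, and a difference in shares between groups was not tested. The gene was chosen on a low level of the 13223-bp circle in CCl4 livers, which favours a lower share of it there. Nothing is therefore read from that difference in shares.

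**Figure D4:**
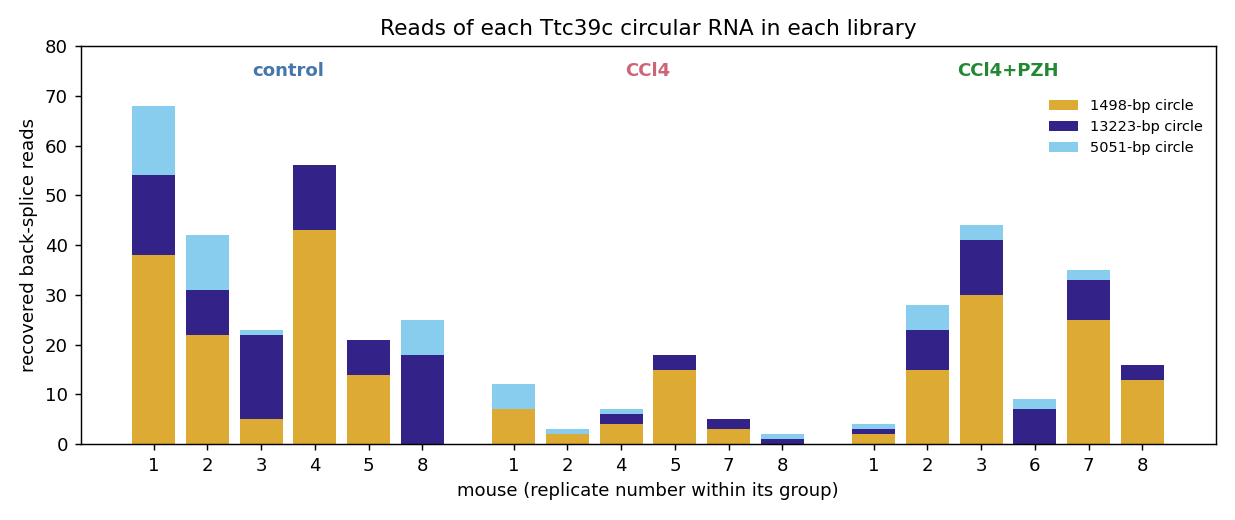
Bars give the recovered back-splice reads of Ttc39c in each library, stacked by circle, with mice numbered as in the labels. CCl4 livers hold 2 to 18 reads each, against 21 to 68 in controls and 4 to 44 in CCl4+PZH livers, and the 1498-bp circle is missing from control 8, CCl4 8 and CCl4+PZH 6.

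**Figure D5:**
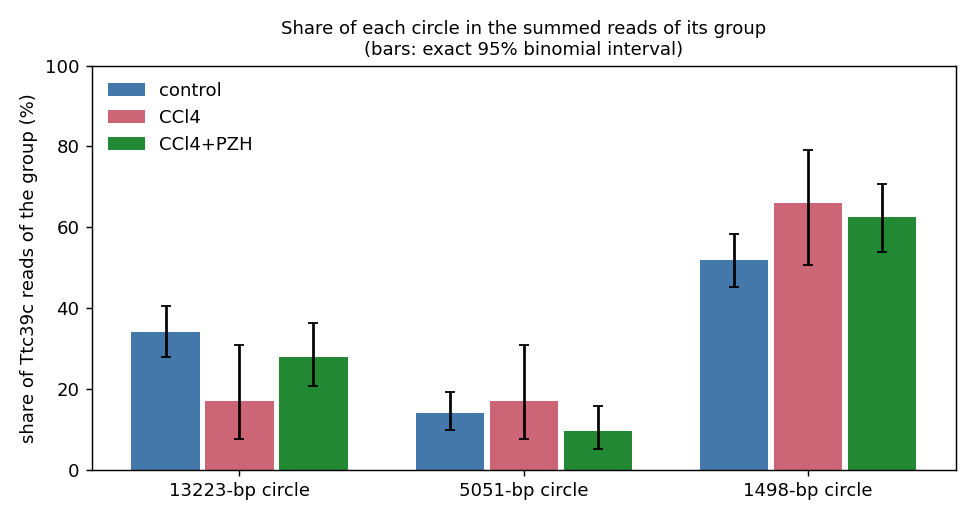
Bars give the share of each circle in the summed Ttc39c reads of a group, in percent, with exact 95% binomial intervals for counting error. The 1498-bp circle holds the largest share in each group, and for each circle the intervals of the 3 groups overlap. The gene was chosen on the low CCl4 level of the 13223-bp circle, which favours its lower share there.

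The 2 circles with a common start differ in the position of their other end. Of the reads of this pair, the 13223-bp circle had 70.8% of 113 in control livers (exact 95% interval 61.5 to 79.0), 50% of 16 after CCl4 (24.7 to 75.4) and 74.5% of 51 after CCl4 with PZH (60.4 to 85.7). It had more reads than the 5051-bp circle in 5 controls, 3 CCl4 livers and 5 CCl4+PZH livers. The intervals overlapped, and that of CCl4 holds the shares of both other groups. Here too the choice of the gene favours a lower share of the 13223-bp circle in CCl4 livers.

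Across the 18 libraries the 3 circles followed each other only loosely. On the log2 scale Pearson's r was 0.51 for the 13223-bp and 1498-bp circles (Spearman's rho 0.55), 0.42 for the 13223-bp and 5051-bp circles (rho 0.34) and 0.27 for the 5051-bp and 1498-bp circles (rho 0.15). After scaling to the table's sum these r were 0.31, 0.31 and 0.10. They describe sparse counts in 3 groups that share a scale within each library. Without the 2 libraries farthest from the median of the 5051-bp circle, its r with the 13223-bp circle was 0.13, so that relation rests on those libraries.

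The circular RNAs most like the 13223-bp circle over the 18 libraries, by Pearson's r of log2 values, lay in Rmdn2, a microtubule regulator gene (r = 0.76), Mlxipl, a carbohydrate-responsive transcription factor gene of the liver (0.76), Gphn, which encodes gephyrin (0.75), Gls2, which encodes the liver glutaminase (0.73), and Dpy19l1, a mannosyltransferase gene (0.72). The median r of the circle with all others was 0.21. Since the circle was chosen for its high level in controls and low level in CCl4, such a likeness favours circular RNAs of the same order of groups, which all 5 had, for example 0.816 CPM for Mlxipl in controls against 0.117 after CCl4 and 0.399 after CCl4 with PZH. Of these 5, 3 remained among the leading 5 by rank correlation, 3 after scaling to the table's sum and 2 on deviations from the group means. For the 5051-bp circle the closest lay in Cyp1a2, a drug-metabolising enzyme of hepatocytes (r = 0.79), Rmnd5a, a ubiquitin ligase subunit gene (0.77), and Arid1b, a chromatin remodelling subunit gene (0.72). For the 1498-bp circle, those in Cth, which encodes an enzyme of cysteine synthesis (r = 0.76), and Ahctf1, a nuclear pore gene (0.75), were among the closest 3.

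Of the 11 hosts with 3 or more circular RNAs, 4 had all 3 fitted differences below 0 for CCl4 minus control: Ttc39c, Rere, Bckdhb and Cfhr3. Of all 434 differences 62.9% were below 0. Ttc39c and Cfhr3 also had all 3 above 0 for CCl4+PZH minus CCl4, where 69.8% of all 434 differences were above 0. The host Rere, a transcriptional corepressor gene, had differences of −1.62 to −1.29 for CCl4 and of −0.06 to 0.18 for CCl4+PZH against CCl4. For Bckdhb, a gene of branched-chain amino acid breakdown, they were −1.28 to −0.15 and −0.12 to 2.45. No test compared these hosts with each other.

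Among other hosts of TPR proteins, 3 circular RNAs were in the table, in Ttc7b, Zc3h7a and Uty. For CCl4 minus control 1 differed below 0 and 2 above it, with a median of 0.0044 beside −0.28 for all 434. That of the zinc finger gene Zc3h7a was higher in CCl4 (log2 2.80, limma adjusted p = 0.0316), and it was on the list with this result known. For CCl4+PZH minus CCl4, 0 passed and 1 of 3 was above 0. The other 15 circular RNAs of chromosome 18 had 9 differences below 0 for CCl4 minus control (62.9% of all 434 were), with a median of −0.16, and 0 passed. For CCl4+PZH minus CCl4, 11 of these 15 were above 0 (69.8% of all 434 were) and 0 passed; the smallest p belonged to Dcp2, an mRNA decapping enzyme gene, at −1.28 (limma adjusted p = 0.804). The sole listed circular RNA of a back-splicing regulator, in Hnrnpu, had −2.11 for CCl4 minus control (limma adjusted p = 0.199) and 1.25 for CCl4+PZH minus CCl4 (limma adjusted p = 0.804).

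Summed CPM of circular RNA of hepatocyte genes had its highest median in controls and its lowest in CCl4 livers. Of its 13 circular RNAs, 8 had means in the order control, CCl4+PZH, CCl4, as did 35.5% of all 434. The 13 lie in 9 of 22 hepatocyte marker genes (Abcc2, Ces1c, Cfhr3, Cyp1a2, Kng2, Mug1, Mug2, Pon1 and Slco1b2), and none in Alb, Apoa1 or Ttr. Those of Mug1, Mug2 and Cfhr3 are uncertain, as near-identical genes can share reads. The summed level of the 13 was 1.48 to 15.0 CPM in controls (median 5.60), 1.65 to 3.42 CPM after CCl4 (median 2.29) and 2.23 to 6.93 CPM after CCl4 with PZH (median 4.55). These sums were not scaled to the table's sum, which ran from 40.4 to 550 CPM within the controls, with both extremes in the later controls 3 and 4. For CCl4 minus control 11 of 13 were below 0 and 0 passed, with a median of −0.46, beside 62.9% below 0 and a median of −0.28 for all 434. The exceptions were 1 of 2 circular RNAs of the bile transporter gene Abcc2 (1.23) and that of Mug1 (0.07). For CCl4+PZH minus CCl4 12 of 13 were above 0 and 0 passed, with a median of 0.32, beside 69.8% above 0 and a median of 0.23 for all 434. The smallest p was that of Cyp1a2 (log2 1.34, limma adjusted p = 0.804). The 4 circular RNAs of macrophage genes, 3 in Adgre1 and the other in Mertk, were all above 0 for CCl4 minus control and 0 passed. Of all 434 differences 37.1% were above 0. The summed medians of these 4 were 0.764 CPM in control, 1.85 CPM in CCl4 and 1.41 CPM in CCl4+PZH livers. Their ranges were 0 to 2.71, 0.368 to 4.66 and 0.680 to 3.02 CPM. The lymphocyte list and the list of stellate cell and matrix genes had 1 each, in Ikzf1 and in the matrix metalloproteinase gene Mmp15. Both were above 0 for CCl4 minus control (as were 37.1% of all 434) without passing. The endothelial and cholangiocyte lists had 0. The part of cell composition in the Ttc39c values was not tested, and in whole liver fewer cells of a type and less RNA per cell cannot be told apart.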

How the data were processed

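The members, gene lists and tests were chosen with earlier results of these data known. The deposited table holds the authors' CPM values of back-splice reads for 434 circular RNAs in 18 libraries, without strand. Per the labels' protocols, RNA was extracted with TRIzol, ribosomal RNA was removed, and both ends were read for 150 bp. Per the submitters' processing notes, the tools included Bowtie2 2.5.1, HISAT2 2.2.1, StringTie 2.1.5, cutadapt 4.2 and FastQC 0.11.9, with the build GRCm38. How circular RNAs were called and filtered, and which total the CPM refer to, is not given in the sources used here. The table holds only circular RNAs found in 9 or more libraries, so rarer ones are not seen.

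Whole reads were recovered by dividing each library by the value of 1 read: of 7812 values, 7812 (100%) came out whole to a tolerance of 0.1, giving 25803 reads, on which edgeR with TMM called 5, 0 and 2 and DESeq2 2, 0 and 1 circular RNAs for CCl4 minus control, CCl4+PZH minus CCl4 and CCl4+PZH minus control. Hosts were assigned by position with RefSeq GRCm38.p6, for 429 of 434 in 374 genes; Ttc39c appears there at the range of the rule.

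The test was limma (3.58.1, under R 4.3.3) on log2 values after adding a pseudocount of 0.13655 CPM, which is the smallest non-zero value of a library, as the median of all libraries. It used 3 group means over all 18 libraries, a trend of variance on abundance to which limma moved every circular RNA's variance fully, and two-sided tests, with Benjamini-Hochberg adjustment over all 434 and a threshold of 0.05; a filter of 6 or more non-zero libraries removed 0. Replicates are mice, numbered as in the titles. Alternatives were pseudocounts, filters, scalings, recovered reads tested with DESeq2 1.42.0 or edgeR 4.0.16, a replicate block, controls 1, 5 and 8 alone, the 2 groups compared alone, each library left out, and, chosen after seeing the data, edgeR with implied totals and ratios of means with libraries left out. The tests were tried on simulated data, where limma, unlike in the main fit, ran on values scaled to each library's sum. That trial does not cover the spread of these sums. Shares have exact Clopper-Pearson 95% intervals. Named are the members, the circular RNAs of highest r with each (5 for the 13223-bp circle and 3 for each other, of which 1 is not reported here), hosts with 3 or more, and in each list those past the threshold or the smallest p for CCl4+PZH minus CCl4; Abcc2 and Mug1 were singled out after their values were seen. Tables and plots were made in Python 3.11.15 (pandas 2.3.3, numpy 2.4.6, matplotlib 3.10.9, scipy 1.17.1). No sequence is printed.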

Additional observations from a re-analysis of the deposited data

Results flagged for a closer look

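Of 21 groups of 6 values examined (levels and shares of the circles by group), 3 held a value that stood apart by Dixon's criterion at 95%. Chance meets it in about 1 in 20 groups of normal values. These are sparse counts and shares of the same reads, so that rate need not hold here. The 5051-bp circle stood at 0.715 CPM in CCl4 1, from 5 reads, while the other CCl4 livers reached 0.146 CPM. The 13223-bp circle held 77.8% of the Ttc39c reads in CCl4+PZH 6, or 7 of 9 reads, while the other livers of that group reached 28.6%. The 1498-bp circle held 0% of the reads in CCl4 8, which had only 2, while the other CCl4 livers held 57.1% or more.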

How the results depend on the processing

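For the 6 differences that were tested (3 circles, CCl4+PZH against CCl4 and against control), 0 of 180 values under 30 alternatives each passed, and the lowest adjusted p was 0.5003. Between CCl4+PZH and CCl4 all values stayed positive, at 1.39 to 2.46 for the 13223-bp circle, 0.71 to 2.31 for the 1498-bp circle and 0.07 to 0.89 for the 5051-bp circle. Against control the 13223-bp circle stayed negative (−1.17 to −0.54). The 1498-bp circle turned positive with the replicate block (0.66) and with controls 1, 5 and 8 alone (0.36), and ran from −1.11 to 0.25 with single libraries left out; the 5051-bp circle ran from −0.88 to 0.058 with single libraries left out and from −1.76 (DESeq2) over all alternatives. For CCl4 minus control, without tests, all values stayed negative: −3.43 to −2.19, −2.42 to −0.76 and −2.45 to −0.48 for the 13223-bp, 1498-bp and 5051-bp circles. The share of the 13223-bp circle in controls was 41.2% as a mean over libraries, also over those with 5 or more host reads, and 27.8% in summed CPM. These figures weigh the libraries differently from the 34.04% of pooled reads. Controls 3 and 8 had shares of 73.9% and 72% from 23 and 25 host reads. The other controls had 21.4% (control 2) to 33.3% (control 5). The circular RNAs called for CCl4 minus control numbered 3, against 1 to 6 under alternatives: 5 with edgeR and TMM, 5 scaled to the table's sum, 2 with DESeq2, 1 with edgeR and implied totals, 1 with the replicate block, 1 when limited to those non-zero in 12 or more libraries, and 6 without control 3. For CCl4+PZH minus control they numbered 1, against 0 to 3. No pairing by replicate number was seen: over 13 same-numbered pairs the correlation of deviations ran from −0.154 to 0.0794, and 1 of 17 libraries correlated best with its own number. With counts this sparse a pairing could be missed, and the labels do not say whether the numbers pair the mice. Depth limits the shares, with 47 Ttc39c reads in CCl4 livers.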

Other observations

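Pairs of circular RNAs that share a start or an end, as the 13223-bp and 5051-bp circles do, numbered 33 in 30 hosts. For CCl4 minus control the longer circle of the Ttc39c pair minus the shorter gave −1.69 on the log2 scale. Only the pair of Tlk1, a kinase gene, had a more negative value (−2.70), and that of Psd3 had a larger one in the other direction (2.47); the median size over the 33 pairs was 0.82. By reads the longer circle of Tlk1 held 96.2% of 53 in controls, 32.4% of 68 in CCl4 and 52.5% of 99 in CCl4+PZH livers. The longer circle of Mark3, another kinase gene, held 75% of 44, 39.4% of 33 and 77.3% of 44, an order of groups like that of the Ttc39c pair. The place of the Ttc39c pair rests on the CCl4 value of the 13223-bp circle, on which the gene was chosen. These values were picked out after they were seen and were not tested.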
